A study of Rattus norvegicus with 32 samples.

Results

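The transcription factors Sox2, Sox9, Nfia, Nfib, Nfix, Pax6, Olig2, Zbtb20 and Emx2 were followed in rat astrocytes exposed to polystyrene particles. They were chosen by name, as 9 factors known from neural stem cells and from the formation of glia, with earlier results of these data known. Of the 9, 8 were found by name in both deposited tables, among the 17463 genes that the tables share. Nfix matched no row of either table by name and has no value here. The astrocytes were differentiated in culture from rat fetal neural stem cells, on Geltrex in a medium with N-2 supplement and 1% FBS, and were exposed for 7 days with fresh particles every few days. The groups were a control and 1, 10 and 100 µg/mL of plain 50 nm microspheres, and a second control with 1, 10 and 100 µg/mL of 500 nm microspheres. Each of the 8 groups had 4 libraries, 32 in all, and each size was compared only with its own control. The labels number the libraries of a group. The methods of the study speak of biological replicates for its culture experiments as a whole, in a number that is not the 4 libraries of a group here. For the RNA extraction they give an n of 4 without saying what was counted. No source used here ties these 4 to separate cultures, so the p-values may measure technical spread alone.

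These factors work in a partly ordered way in the developing brain. SOX2 and PAX6 keep neural stem cells and radial glia in a progenitor state, and EMX2 patterns the cortex and is also made in its stem cells. SOX9 and the nuclear factor I proteins, NFIA, NFIB and NFIX, act at the switch from making neurons to making glia, and SOX9 and NFIA work together on genes of the young astrocyte. ZBTB20 is a zinc finger repressor that favours astrocyte formation in the cortex, and OLIG2 is best known for the oligodendrocyte lineage, although some astrocytes and their progenitors make it too. Many of these factors stay on in mature astrocytes, where they help to hold the cell's identity.

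The tables give a fold change for each dose against control and an adjusted p, and no value for a single library. A fold change here is linear and signed, so that a gene lower than in control is written as minus the inverse ratio, and it was shrunken by apeglm, which draws imprecise estimates toward 1. The depth, the level of a gene and the spread between replicates are therefore unknown, and error is seen only through the adjusted p. A gene counted as differentially expressed (a DEG) when its adjusted p was under 0.05 and it was at least 1.5-fold higher or lower than in control, which is 0.58 on the log2 scale. Genes with an adjusted p of exactly 1 at 100 µg/mL, 3827 for 50 nm and 2476 for 500 nm, were not counted as tested, and none of the 8 factors was among them. In these bulk cultures, fewer cells of a type and less RNA per cell cannot be told apart.

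At 100 µg/mL, 0 of the 8 factors were DEGs with 50 nm particles and 0 of 8 with 500 nm particles. DEGs made up 3.79% of the tested genes for 50 nm and 8.19% for 500 nm, so 8 genes at these rates would hold 0.30 and 0.65 DEGs, and a count of 0 does not set the factors apart from other genes. Without a fold change limit the counts were again 0 and 0, beside 10.9% and 15.7% of all tested genes, rates that correspond to 0.87 and 1.25 of 8. The unadjusted p of the authors' DESeq2 tests, recovered by undoing the adjustment, was under 0.05 for 0 of the 8 factors with 50 nm and for 2 of the 8, Nfia and Zbtb20, with 500 nm. Over all tested genes these shares were 22.9% and 26.1%, or 1.83 and 2.09 of 8.

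With 50 nm particles at 100 µg/mL the 8 log2 fold changes lay between -0.12 (Olig2) and 0.08 (Sox9), with a median of 0.0042. The median over all tested genes was -0.0042. Of the 8 factors, 4 were on the higher and 4 on the lower side of control, and 6 of the 8 were closer to control than the typical tested gene, whose absolute log2 fold change was 0.067 at the median. With 500 nm particles the range was wider, from -0.31 (Zbtb20) to 0.15 (Emx2), and the median was -0.041 against -0.0095 over all tested genes. Again 4 factors were on each side, and 3 of the 8 were closer to control than the typical gene for this size, whose absolute log2 fold change was 0.099.

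**Figure D1:**
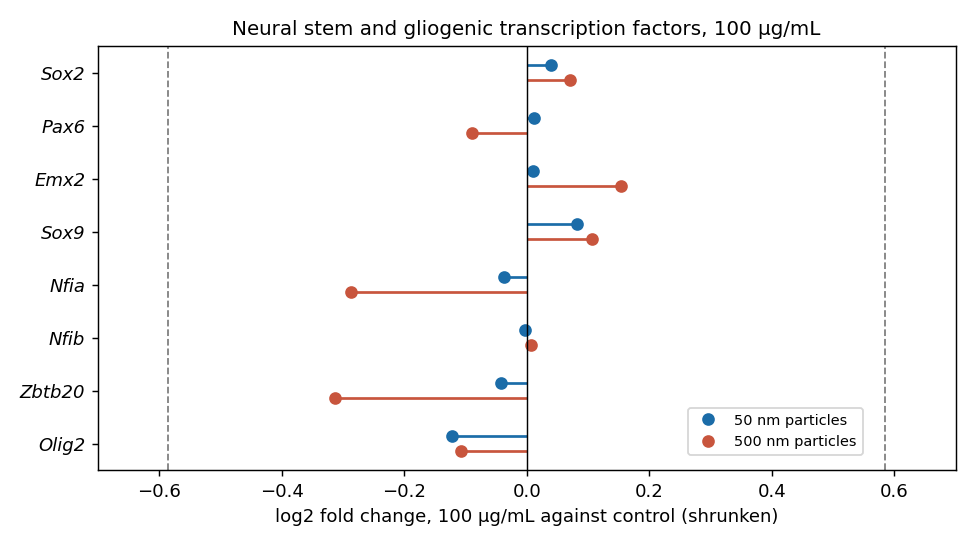
Shrunken log2 fold change of the 8 factors at 100 µg/mL relative to the control of that size (horizontal axis), with blue points for 50 nm and red points for 500 nm; the dashed lines mark 1.5-fold higher and lower, and the tables give no error to draw. All 16 points lie inside the dashed lines, and those of Nfia and Zbtb20 with 500 nm, at -0.29 and -0.31, are the farthest from 0.

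Among the progenitor factors, Sox2 (ENSRNOG00000012199) had a fold change of 1.03 with 50 nm at 100 µg/mL (adjusted p = 0.758) and 1.05 for 500 nm particles (adjusted p = 0.733). Both values were slightly above control and neither passed the test. For Pax6 (ENSRNOG00000004410) the fold change was 1.01 for 50 nm particles (adjusted p = 0.949) and -1.06 for 500 nm particles (adjusted p = 0.722), so that the sizes lay on opposite sides of control without passing the test on either. Emx2 (ENSRNOG00000009482) had 1.01 for 50 nm particles (adjusted p = 0.953) and 1.11 for 500 nm particles (adjusted p = 0.503), the highest value of the 8 factors for the larger particles. That change was greater in size than those of 64.6% of the genes tested with 500 nm. In RefSeq, Emx2 overlaps its antisense gene Emx2os; the libraries were made with a stranded kit, but no source used here says whether reads were counted by strand.

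Of the gliogenic factors, Sox9 (ENSRNOG00000002607) had a fold change of 1.06 for 50 nm particles (adjusted p = 0.554) and 1.08 for 500 nm particles (adjusted p = 0.661). It was the highest of the 8 factors with the smaller particles, yet 43.6% of all tested genes had a larger change there. Nfib (ENSRNOG00000009795) was the factor nearest to control for both sizes, with a log2 fold change of -0.0027 for 50 nm particles (adjusted p = 0.987) and 0.0070 for 500 nm particles (adjusted p = 0.986). Only 2.62% and 4.16% of tested genes had a smaller change.

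Nfia (ENSRNOG00000006966), the partner of SOX9 at the onset of astrocyte formation, had a fold change of -1.03 for 50 nm particles (adjusted p = 0.824) and of -1.22 for 500 nm particles (adjusted p = 0.143). The second value is 18.1% below control, and its unadjusted p was 0.0325. Zbtb20 (ENSRNOG00000056716) stood very close to it, with -1.03 for 50 nm (adjusted p = 0.743) and -1.24 for 500 nm (adjusted p = 0.141), which is 19.5% below control with an unadjusted p of 0.0321. By size alone, 18.1% of the tested genes had a larger change than Nfia with 500 nm, and 16.4% a larger one than Zbtb20. Counting direction, 8.44% of the tested genes were lower than Nfia, and 7.61% were lower than Zbtb20. Neither value passed the test after adjustment over the tested genes. In RefSeq, Mir568 lies inside Zbtb20, so that reads of the longer transcript can be counted on it; its own fold changes were -1.12 for 50 nm particles (adjusted p = 0.277) and -1.35 for 500 nm particles (adjusted p = 0.0694).

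Olig2 (ENSRNOG00000028658) was the lowest of the 8 factors with 50 nm particles, at a fold change of -1.09 (adjusted p = 0.424), and had -1.08 for 500 nm particles (adjusted p = 0.647). It was the 1 factor of the 8 whose value was farther from control with the smaller particles. Its neighbour in the family, Olig1, had -1.11 (adjusted p = 0.297) and -1.05 (adjusted p = 0.808).

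How large a change had to be before it passed the test can be read from the tables themselves. With 500 nm at 100 µg/mL, 1542 genes had an absolute log2 fold change between 0.2 and 0.3, the range that holds Nfia, and 19.4% of them had an adjusted p under 0.05. Between 0.3 and 0.4, where Zbtb20 lies, the share was 48.2% of 728 genes. Below 0.1, where 3 of the 8 factors lay with 500 nm and 7 of the 8 with 50 nm, it was 0.026% of 7821 genes for 500 nm and 0.034% of 8873 genes for 50 nm. A change of under 0.1 on this scale, where shrinkage also gathers the imprecise estimates, thus seldom passed the test with 4 libraries a group, and the values do not show that these factors were equal to control.

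**Figure D2:**
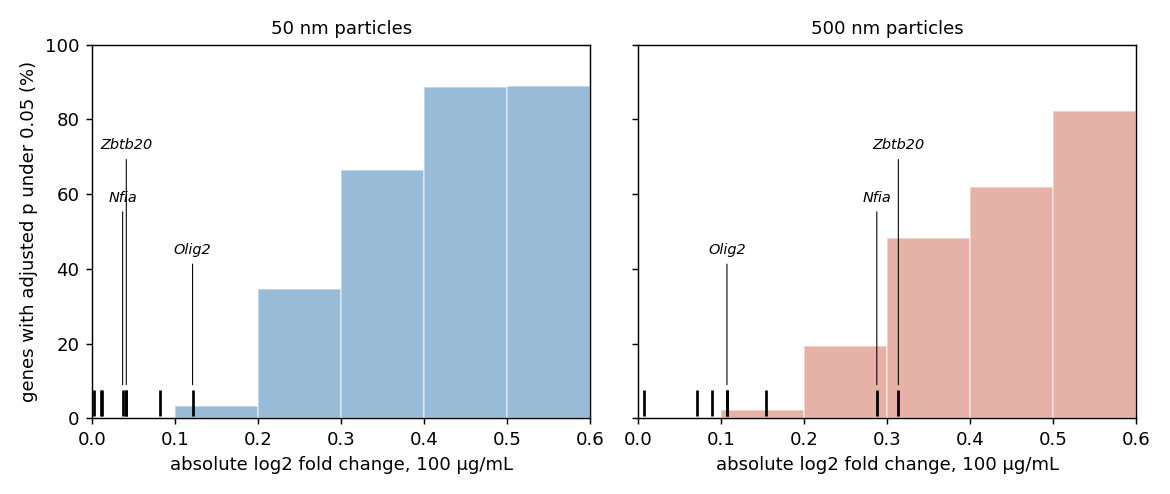
Percent of tested genes with an adjusted p under 0.05 (bars, vertical axis) by absolute log2 fold change at 100 µg/mL in steps of 0.1 (horizontal axis), for 50 nm on the left and 500 nm on the right, with a black tick for each of the 8 factors. Nfia and Zbtb20 with 500 nm stand where 19.4% and 48.2% of genes passed, while most other ticks stand where almost no gene did.

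The values of the particle sizes, each relative to its own control, were set side by side. The 50 nm and 500 nm libraries are separate sets with separate controls, so size and set cannot be told apart. At 100 µg/mL, 6 of the 8 factors lay on the same side of control for both sizes, and Pax6 and Nfib did not. The same side was found for 73.4% of the 13982 genes tested in both tables and for 71.0% of the 12661 that were DEGs for neither, a share near that of the factors. The value with 500 nm was the larger in size for 7 of the 8 factors, against 63.1% of the genes that were DEGs for neither. The differences were largest for Zbtb20, whose log2 fold change with 500 nm was -0.27 relative to that with 50 nm, and for Nfia, with -0.25. For the other 6 factors the sizes differed by at most 0.14 (Emx2). None of these differences could be tested, since that needs values per library.

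**Figure D3:**
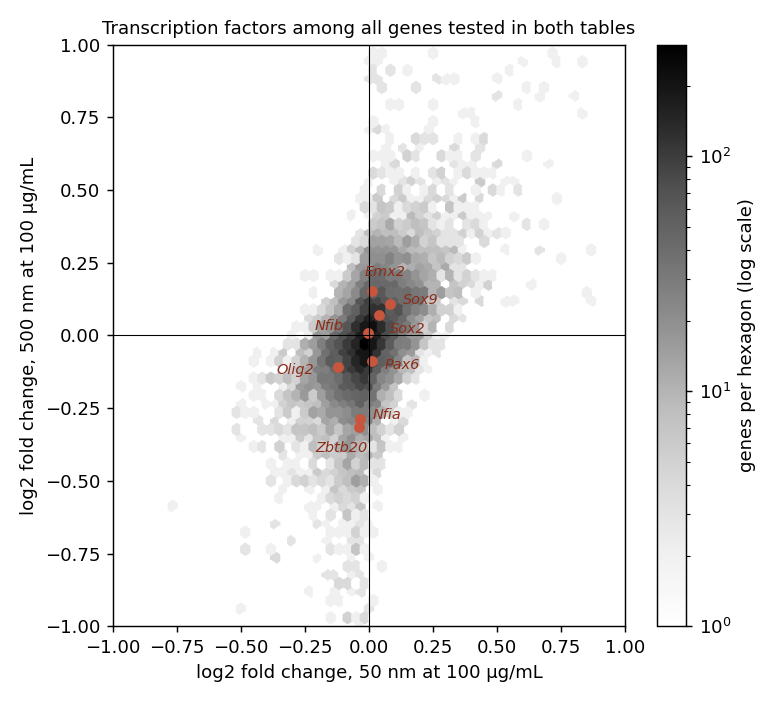
Log2 fold change at 100 µg/mL with 50 nm (horizontal axis) and 500 nm (vertical axis) for all genes tested in both tables, in grey with darker hexagons holding more genes, and for the 8 factors in red. Both axes end at 1 in either direction, which leaves out 717 genes; 6 factors lie in the dense middle of the cloud, and Nfia and Zbtb20 lie in its lower part, just left of the vertical line at 0.

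At the lower doses the tables hold almost nothing for these genes. With 1 µg/mL, 0 of the 8 factors and 0.0% of all tested genes were DEGs for either size. The factors' fold changes were no more than 4.0e-06 from 1 with 50 nm (Emx2) and 1.5e-06 with 500 nm (Pax6), and all 8 shared 1 adjusted p per size. With 10 µg/mL, 0 of the 8 factors were DEGs, beside 0.00562% of tested genes for 50 nm and 0.00555% for 500 nm. The farthest from 1 were Pax6 with 50 nm, by 1.7e-05, and Nfia with 500 nm, by 2.5e-06. The signs at this dose, 2 factors higher and 6 lower with 50 nm and 0 higher and 8 lower with 500 nm, rest on these tiny values, and the 3 doses of a size share their control libraries. Unshrunken fold changes at these doses were not at hand.

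Transcription factors of the same families and stages were described beside these 8. From a list of 26 other neural stem and gliogenic factors, 24 were tested for both sizes, and 1 was a DEG for each size, Hes5 with 50 nm and Nr2e1 with 500 nm, both lower. In either direction DEGs made up 3.79% of all tested genes for 50 nm and 8.19% for 500 nm. DEGs that were lower made up 0.722% and 3.25% of all tested genes. Higher DEGs numbered 0 of the 24 for either size, beside 3.07% and 4.94% of all tested genes. The median log2 fold change of the 24 was -0.046 with 50 nm and -0.068 with 500 nm, against -0.0042 and -0.0095 over all tested genes. Of the 24, 5 were on the higher and 19 on the lower side with 50 nm, and 7 and 17 with 500 nm, where 48.1% and 46.9% of all tested genes were on the higher side. This list, too, was chosen with earlier results of these data known, so these values describe it only and were not tested. The rest of the list, apart from Sox5 and Id3 with 500 nm, had an adjusted p of 0.05 or more for both sizes.

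Hes5, a Notch target that keeps progenitors undifferentiated, fell with 50 nm particles, to a fold change of -2.09 (adjusted p = 6.94e-04), and had -1.18 for 500 nm particles (adjusted p = 0.186). Hes5 overlaps Pank4 in RefSeq, and Pank4 itself had -1.17 for 50 nm particles (adjusted p = 0.10) and 1.02 for 500 nm particles (adjusted p = 0.906). Nr2e1, or TLX, an orphan nuclear receptor needed for stem cell renewal, had -1.04 for 50 nm particles (adjusted p = 0.636) and fell to -1.61 for 500 nm particles (adjusted p = 0.0355). Sox5, a SOX protein without an activation domain of its own, had -1.07 for 50 nm particles (adjusted p = 0.547) and fell to -1.49 for 500 nm particles (adjusted p = 0.00199), just under the fold change limit. Id3, an inhibitor of bHLH factors and a target of BMP signals, had -1.04 (adjusted p = 0.768) and fell to -1.22 for 500 nm particles (adjusted p = 0.0215). Id3 thus passed the test at the fold change at which Nfia did not. Sox5 and Id3 were named after their values were seen.

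Of the other SOX genes tested, Sox6, Sox8, Sox10 and Sox21 did not pass the test for either size, and Sox5 passed it for 500 nm only, a difference that was not tested. The SOX proteins closest to SOX9, Sox8 and Sox10, had log2 fold changes of -0.06 and -0.03 with 50 nm and -0.08 and -0.06 with 500 nm, below control where Sox9 was above it. Nfic, the nuclear factor I gene outside the 9, had -0.13 for 50 nm particles (adjusted p = 0.324) and -0.19 for 500 nm particles (adjusted p = 0.244). It lay between Nfib and Nfia with 500 nm and below both with 50 nm.

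Genes that astrocytes turn on as they form and mature, several of them targets of SOX9 and nuclear factor I proteins, were examined next. The 18 genes counted here were in both tables, 17 tested with 50 nm and 18 with 500 nm. With 500 nm at 100 µg/mL, 4 of the 18 were DEGs, all lower, beside 3.25% of all tested genes in that direction and 0 higher beside 4.94%. The median log2 fold change was -0.17, against -0.0095 over all tested genes. With 50 nm, 1 of the 17 was a DEG, higher, beside 3.07% of tested genes, and the median was -0.019. In either direction DEGs made up 8.19% of all tested genes for 500 nm and 3.79% for 50 nm. This list was chosen with earlier results of these data known, so these counts and medians describe it only and were not tested.

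The 4 genes lowered by 500 nm particles serve water and glutamate handling, gap junctions and glycolysis. Aqp4, the water channel of astrocyte endfeet, fell to a fold change of -2.62 (adjusted p = 1.17e-07). Gja1, which encodes the gap junction protein connexin 43, fell to -2.32 (adjusted p = 3.66e-07). Glul, glutamine synthetase, fell to -1.80 (adjusted p = 0.0241), and Aldoc, the brain aldolase, to -1.51 (adjusted p = 0.0301). Aldoc, and Fabp7 and Pdgfra among the genes below, were named after their values were seen.

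With 50 nm these 4 genes had values between -1.20 (Aqp4, adjusted p = 0.0378, past the test but under the fold change limit) and 1.03 (Aldoc, adjusted p = 0.772). Gfap, the intermediate filament whose promoter nuclear factor I binds, was the DEG for 50 nm, with 1.77 (adjusted p = 0.00803), and had 1.03 for 500 nm particles (adjusted p = 0.841). The paper states that no rise of Gfap was seen, without naming a particle size, which differs from the value for 50 nm. Fabp7, a lipid binding protein of radial glia that is another known target of nuclear factor I and PAX6, rose to 1.48 for 50 nm particles (adjusted p = 0.00332) and had 1.14 for 500 nm particles (adjusted p = 0.380). The genes known to be induced by SOX9 and NFIA together, Apcdd1, Mmd2 and Zcchc24, did not pass the test, with -1.36 for Mmd2 for 500 nm particles (adjusted p = 0.0931) as the farthest from control. The differences between sizes were not tested for these genes either.

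**Figure D4:**
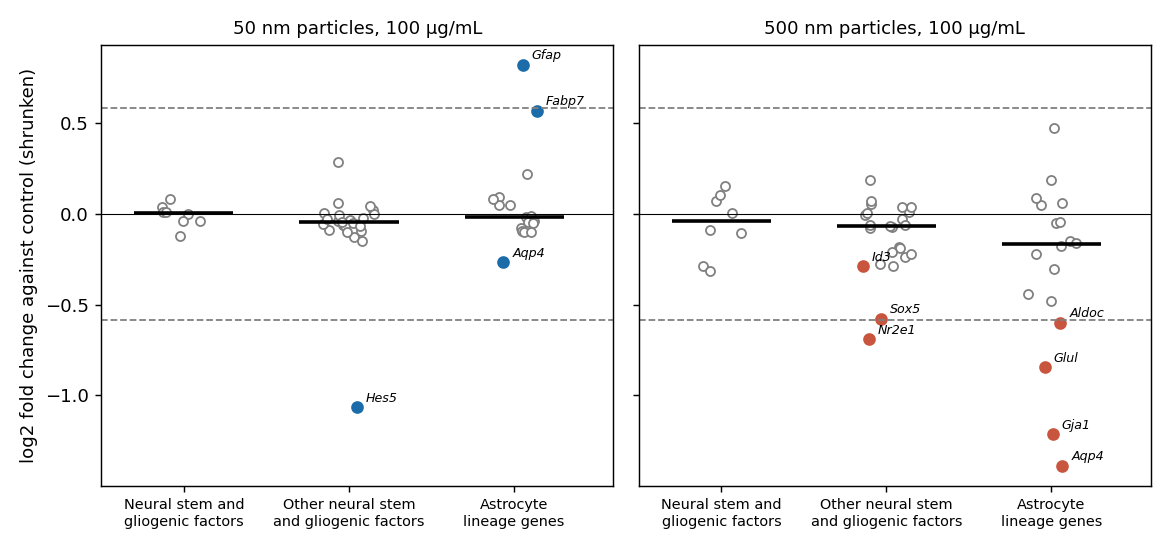
Log2 fold change at 100 µg/mL (vertical axis) of the 8 factors, 24 other neural stem and gliogenic factors and the tested astrocyte lineage genes, for 50 nm on the left and 500 nm on the right; filled points have an adjusted p under 0.05, open points do not, bars are medians and dashed lines mark a fold change of 1.5. All points of the 8 factors are open and inside the dashed lines, while with 500 nm 4 astrocyte genes, from Aldoc to Aqp4, lie below the lower dashed line.

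The makeup of the cultures was examined with lists of cell type markers. The tables do not give levels, so whether a marker was present in quantity cannot be read from them. The lists are short, and at the shares of DEGs over all tested genes, 3.79% for 50 nm and 8.19% for 500 nm, each would hold fewer than 1, so a count of 0 does not show that the makeup of the cultures was the same as in control. Of the stem cell markers, 1 of 10 tested, Vim, an intermediate filament that reactive astrocytes also make, was a DEG with 50 nm, at 2.16 (adjusted p = 0.00573), and 0 of 9 with 500 nm, where Nes had an adjusted p of exactly 1. Of the oligodendrocyte markers, 0 of 11 were DEGs for either size, and Pdgfra was lower with 50 nm at -1.30 (adjusted p = 7.80e-04). With 500 nm all 11 were on the lower side of control, between -0.13 and -0.0037 on the log2 scale, while 46.9% of all tested genes were on the higher side, and 0 of the 11 passed the test. With 50 nm, 3 of the 11 were higher and 8 lower. The stem cell markers were 8 higher and 2 lower with 50 nm, and 6 higher and 3 lower with 500 nm. The tested neuron markers, 6 with 50 nm and 9 with 500 nm, held 0 DEGs, and the 8 cell cycle genes held 0 for both sizes, with log2 fold changes between -0.17 and 0.04. The neuron markers were 1 higher and 5 lower with 50 nm, and 3 higher and 6 lower with 500 nm. For the cell cycle genes these counts were 1 and 7 with 50 nm, and 3 and 5 with 500 nm. These lists were also chosen with earlier results of these data known, and their directions were not tested. Microglia markers were listed for 4 of 8, with 0 tested for 50 nm and 3 for 500 nm, of which 0 were DEGs. Of 7 fibroblast and pericyte markers 4 were listed and 2 tested, and Pdgfrb fell to -1.54 for 50 nm particles (adjusted p = 0.0144) and -2.39 for 500 nm particles (adjusted p = 1.33e-09). The other tested marker, Col1a1, had -1.02 for 50 nm particles (adjusted p = 0.285) and -1.03 for 500 nm particles (adjusted p = 0.624). The part of the makeup of the cultures in the values of the 8 factors was not tested.

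The pattern of Zbtb20, the factor with the largest change, was compared with those of 890 genes that had an adjusted p under 0.05 at 100 µg/mL for both sizes. By distance over the 4 log2 fold changes at 10 and 100 µg/mL, the nearest were Zmynd11 (0.15), Atp13a1 (0.16) and Taok2 (0.16). Zbtb20 itself passed the test for neither size, and almost no gene with a change as small as its value for 50 nm did, so the requirement itself keeps these genes away from Zbtb20 on that value. Zmynd11 had log2 fold changes at 100 µg/mL of -0.17 for the smaller and -0.24 for the larger particles.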

How the data were processed

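RNA-seq libraries were made with a stranded mRNA kit from 32 samples, 4 for each of 8 groups, with groups taken from the labels. The authors trimmed reads with bbduk, aligned them with STAR 2.7.1a to the rat genome Rnor_6.0, counted them per gene with featureCounts 2.0.0, leaving out alignment qualities below 12, and ran DESeq2 1.26.0 to set each dose against its size's own control (versions per the submitters' processing notes). The deposited tables hold the authors' comparisons and nothing else. Fold changes, a score that is linear, signed and shrunken with apeglm, and the Benjamini–Hochberg adjusted p-value were used as deposited by the authors, since no value per library was at hand. Depth and replicate spread are therefore unknown, and no interval is given. The adjustment was taken to cover the genes of a table with an adjusted p below 1.

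Signed values were turned into log2 fold changes. For 100 µg/mL, the p-value before adjustment was taken as adjusted p times rank over the number of genes with an adjusted p below 1. For genes tied in adjusted p this gives an upper limit. The procedure was tested on simulated p-values. Genes that overlap a named gene were looked up in the RefSeq table of GRCr8, which is not the authors' build. The factors and gene lists were chosen with earlier results of these data known. The result of 1 gene of the astrocyte list is not reported here, and the list was counted without it. The rule for naming took all factors, called list members (at most 4 of a list) and the 3 genes nearest in pattern to the factor with the largest change. Alternatives were other limits on fold change and p. Python 3.11.15, numpy 2.4.6, pandas 2.3.3, scipy 1.17.1 and matplotlib 3.10.9 were used.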

Additional observations from a re-analysis of the deposited data

How the results depend on the processing

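The count of the 8 factors called was 0 for both sizes and all 3 doses when the fold change limit was dropped. The other settings could not move the count. No factor reached 1.5-fold, the farthest being Zbtb20 at -1.24 with 500 nm at 100 µg/mL, and these settings kept or raised that limit. They were a fold change of at least 2 and an adjusted p under 0.01. At 100 µg/mL they were also a p before adjustment under 0.05 and a new adjustment over the 13982 genes tested in both tables. Without a fold change limit, 3 of the 24 other neural stem and gliogenic factors were called with 500 nm, beside 15.7% of all tested genes. For the astrocyte lineage genes with 50 nm it was 3 of 17, beside 10.9%. With an adjusted p under 0.01 these lists held 0 (other factors, 500 nm) and 2 (astrocyte lineage genes, 500 nm, Aqp4 and Gja1), and the markers of stem, other and cycling cells held 1 with 50 nm. The share of all tested genes with an adjusted p under 0.01 was not counted, so the counts at that limit have nothing to be set against. These moves follow from the limits themselves. No paired analysis was possible because the tables hold no values per library, and leaving out each replicate was not run for the same reason. The shrinkage and the lack of depth limit what can be read from small changes.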
